A study of Mus musculus with 13 samples.

Results

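Serotonin receptor genes were followed in excitatory neurons harvested by hand from the mouse claustrum, a thin sheet of cells beside the insular cortex that is wired to much of the cortex. The 10 genes were chosen by name: Htr1a, Htr1b, Htr1d, Htr1f, Htr2a, Htr2c, Htr4, Htr5a, Htr6 and Htr7. All 10 are among the 23427 genes listed in the count tables, and 8 of them are listed in the table of the blindly sampled mouse, which does not list Htr1b or Htr4. Cells with at least 1 count of Snap25, a synaptic vesicle fusion gene, and at least 1 count of Slc17a7, the vesicular glutamate transporter of cortical excitatory cells, were kept, which left 1011 of 1112 cells.

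The cells came from 4 mature male C57BL/6 mice and 13 plates. In 1 mouse, 238 kept cells were taken without regard to projection, after a retrograde virus carrying GFP in the anterior cingulate cortex had been used to find the claustrum. This animal is called the blindly sampled mouse. In projection mice 1, 2 and 3, fluorescent retrobeads had been placed in the retrosplenial cortex (RSC) and the lateral entorhinal cortex (LEC), and 247 kept cells carried the RSC label, 286 the LEC label and 240 no label. The paper counts the kept cells outside the RSC and LEC labels, in all mice, as blindly selected. Whether an unlabeled cell carried beads is not given, so it may project to either target. All cells of a label in a mouse came from 1 or 2 plates, so plate and label cannot be told apart in projection mice 1 and 2. In projection mouse 3, 1 plate held cells of both labels. The blindly sampled mouse ran on another flow cell at lower depth, with a median of 26023 counts per kept cell against medians of 138535 to 154262 in the projection mice. Single cells ranged from 434 to 495406 counts. The counts were taken as reads, so several of them may stem from 1 molecule, and the intervals given cover counting error only.

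Serotonin reaches the forebrain from the raphe nuclei of the brainstem, and its effect on a neuron is set by the receptors the cell makes. Htr2a and Htr2c couple to Gq proteins, which raise calcium through phospholipase C and tend to excite the cell. Htr1a, Htr1b, Htr1d, Htr1f and Htr5a couple to Gi/o proteins, which lower cyclic AMP and, for Htr1a, open potassium channels that quiet the cell. Htr4, Htr6 and Htr7 couple to Gs proteins, which raise cyclic AMP.

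Cells were divided by Synpr, a synaptic vesicle gene that marks the claustrum core. A cell with at least 200 CPM of Synpr (counts scaled to the same total per cell) was called Synpr-high, which gave 438 cells, and the other 573 were called Synpr-low. The median Synpr level was 1664 CPM in Synpr-high cells and 0 in Synpr-low cells, and 21 cells lay between 100 and 400 CPM, so few cells sat near the threshold. At least 2 of 4 shell markers (Slc30a3, Nnat, Spon1, Col6a1) were detected in 516 Synpr-low and 116 Synpr-high cells. At least 2 of 8 layer 6 markers, which mark deep cortical neurons, were detected in 148 Synpr-low and 26 Synpr-high cells. Synpr-low cells with at least 2 are called cells with layer 6 markers below. Those with fewer than 2 are called cells without layer 6 markers. The core markers were Synpr, Gnb4, Lxn, Gfra1 and Nr4a2. They summed to 6075 to 6392 CPM in Synpr-high and 327 to 719 CPM in Synpr-low cells of the 4 mice. Since Synpr is in that sum, part of the gap was set by the threshold itself. Shell markers summed to 61.1 to 128 CPM and 782 to 2111 CPM, in the same order of classes. Counts were summed per mouse and class, and the sums were tested over all genes with edgeR's quasi-likelihood test and Benjamini-Hochberg adjustment at 0.05. Levels are given as CPM after TMM normalization, with the mean ± SD over mice.

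Synpr-high and Synpr-low cells were compared first, to ask which receptors differ between the claustrum core and the cells around it. Of the 10 receptors, 6 had enough counts to be tested, 2 were higher in Synpr-high cells and none was lower. The 2 were Htr2c and Htr1a. The background was 8.82% of the 13641 genes tested, with 611 genes higher and 592 lower. The median log2 difference of the 6 receptors was 0.86, against -0.00060 over all genes tested.

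Htr2c, a Gq-coupled receptor, was at 119 CPM in Synpr-high cells of the blindly sampled mouse. In projection mice 1, 2 and 3 the level was 60.8, 91.8 and 57.6 CPM. In Synpr-low cells it was 4.25 CPM in the blindly sampled mouse and 1.29, 1.91 and 1.28 CPM in projection mice 1, 2 and 3. Every Synpr-high value lay above every Synpr-low value, and the blindly sampled mouse was highest in both classes. The means were 82.3 ± 29.0 CPM and 2.18 ± 1.41 CPM (SD, n = 4), with a log2 difference of 5.44 (SE 0.43, edgeR adjusted p = 5.5e-05). The difference was higher in 4 of 4 mice. It was 5.36 to 5.55 on the log2 scale when each mouse was left out in turn.

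The closely related Htr2a, also Gq-coupled, was at 5.61 CPM in Synpr-high cells of the blindly sampled mouse and at 4.79, 1.63 and 4.61 CPM in projection mice 1, 2 and 3. In Synpr-low cells the values were 2.12 CPM and 0.26, 0.61 and 2.35 CPM, in the same order of mice. Synpr-high cells had the higher value in 4 of 4 mice, but the classes overlapped, since the Synpr-high value of projection mouse 2 lay below the Synpr-low values of projection mouse 3 and the blindly sampled mouse. The log2 difference of 1.67 (SE 0.75) did not pass the test (edgeR adjusted p = 0.25). Few cells carried the gene: in the projection mice, Htr2a had a count in 21 of 325 Synpr-high cells and in 12 of 448 Synpr-low cells.

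Htr1a, the Gi/o-coupled receptor that also serves as an autoreceptor on serotonin neurons, was at 20.6 CPM in Synpr-high cells of the blindly sampled mouse. In projection mice 1, 2 and 3 it was at 13.8, 11.1 and 14.4 CPM. In Synpr-low cells the level was 5.31 CPM in the blindly sampled mouse and 4.91, 7.50 and 3.63 CPM in the projection mice, in the same order. The classes did not overlap. The means were 15.0 ± 4.02 CPM and 5.34 ± 1.61 CPM (SD, n = 4), and the log2 difference was 1.47 (SE 0.32, edgeR adjusted p = 0.017). The direction held in 4 of 4 mice. The call was lost when either of 2 mice was left out: the adjusted p was 0.10 without projection mouse 1 and 0.11 without projection mouse 3, with log2 differences of 1.47 and 1.34.

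**Figure D1:**
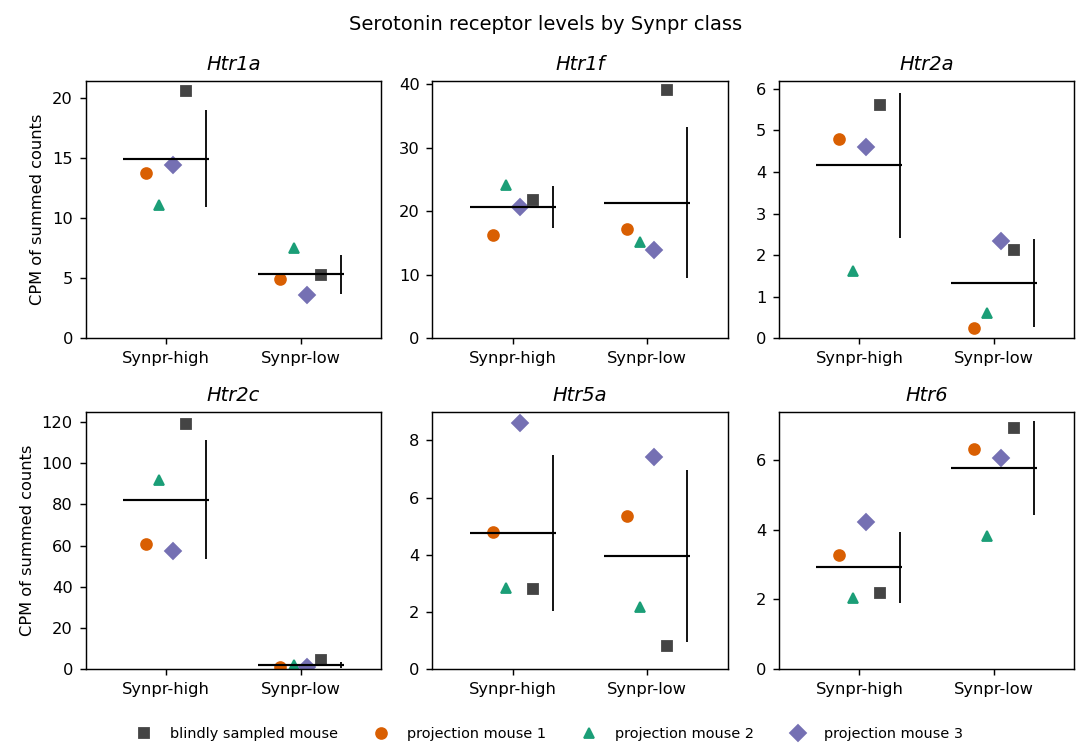
Levels of the 6 tested receptor genes in CPM of counts summed per mouse, in Synpr-high and Synpr-low cells, with 1 point per mouse, the mean as a horizontal line and ± 1 SD as a vertical line. Htr2c and Htr1a do not overlap between the classes, and Htr1f of the blindly sampled mouse stands at 39.0 CPM in Synpr-low cells, above the 14.0 to 17.2 CPM of the projection mice.

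Htr1f, a Gi/o-coupled receptor and a target of some migraine drugs, gave no such pattern. In Synpr-high cells it was at 21.8 CPM in the blindly sampled mouse and at 16.3, 24.2 and 20.7 CPM in projection mice 1, 2 and 3. In Synpr-low cells it was at 39.0 CPM in the blindly sampled mouse and at 17.2, 15.1 and 14.0 CPM in the projection mice. Synpr-high cells were higher in 2 of 4 mice. The log2 difference was -0.02 (SE 0.33, edgeR adjusted p = 0.99), and it was 0.40 without the blindly sampled mouse (adjusted p = 0.35).

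The remaining Gi/o receptor with enough counts, Htr5a, was at 2.81 to 8.61 CPM in Synpr-high cells and at 0.80 to 7.43 CPM in Synpr-low cells of the 4 mice. Both classes were highest in projection mouse 3. The log2 difference was 0.25 (SE 0.65, edgeR adjusted p = 0.92). Htr6, a Gs-coupled receptor, had the opposite sign. It was at 2.18 CPM in Synpr-high cells of the blindly sampled mouse and at 3.26, 2.03 and 4.21 CPM in projection mice 1, 2 and 3, and in Synpr-low cells at 6.91 CPM and at 6.30, 3.82 and 6.05 CPM. Synpr-low cells had the higher value in 4 of 4 mice, with overlapping classes. The log2 difference of -0.95 (SE 0.42) did not pass the test (edgeR adjusted p = 0.24).

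The other 4 receptors did not pass the filter on low counts in this comparison, so they have no test. Htr1b, a Gi/o-coupled receptor found on many axon terminals, had 30 counts in 5 Synpr-high cells and 66 counts in 11 Synpr-low cells of the projection mice. A single cell held 43.9% of the Synpr-low counts. The annotation places an antisense gene, D430036J16Rik, over part of the Htr1b exons, so the source of its counts is uncertain where strand was not used. Htr4, a Gs-coupled receptor, had 11 counts, all in 1 Synpr-high cell of projection mouse 3. It had 0 counts in the 448 Synpr-low cells of the projection mice, which allows a share of cells with a count of up to 0.670% (3 counts of the total).

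Htr7, a Gs-coupled receptor, had 49 counts in 4 Synpr-high cells, of which 1 cell of projection mouse 3 held 51.0%. All 49 were in RSC-labeled cells of the 3 projection mice, and the Synpr-low cells held 1 count in 1 cell. Htr1d, a Gi/o-coupled receptor, showed the reverse placement, with 1 count in Synpr-high cells and 33 counts in 8 Synpr-low cells. All 33 lay in Synpr-low cells with layer 6 markers, and 6 of these 8 cells belonged to the blindly sampled mouse. They were 6 of its 30 cells of that class (95% Clopper-Pearson interval 7.71 to 38.6%), against 2 of 118 in the projection mice, or 1.69% (0.206 to 5.99%). The numbers of cells are small. The blindly sampled animal, its sequencing run and its depth cannot be told apart.

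Since Htr2c and Htr1a were both higher in Synpr-high cells, the sequences around their start sites are shown. Promoter windows of RefSeq on GRCm38.p6, from 250 bases before to 50 bases after the start site, were taken for 9 of the 10 receptors. None was taken for Htr4, since its chromosome was left out of the search. Each window is written 5′ to 3′ along the gene. The Htr2c window lies on the forward strand at chrX:146962263-146962562 and the Htr1a window on the forward strand at chr13:105443443-105443742. Capitals mark a CCAAT box, searched as CCAAT and, on the other strand, as ATTGG.
Htr2c: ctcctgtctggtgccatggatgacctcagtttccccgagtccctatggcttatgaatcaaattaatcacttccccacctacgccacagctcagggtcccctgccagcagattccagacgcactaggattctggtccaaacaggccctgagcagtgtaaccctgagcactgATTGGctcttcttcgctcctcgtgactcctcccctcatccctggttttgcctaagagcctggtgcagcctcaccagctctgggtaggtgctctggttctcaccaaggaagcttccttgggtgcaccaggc
Htr1a: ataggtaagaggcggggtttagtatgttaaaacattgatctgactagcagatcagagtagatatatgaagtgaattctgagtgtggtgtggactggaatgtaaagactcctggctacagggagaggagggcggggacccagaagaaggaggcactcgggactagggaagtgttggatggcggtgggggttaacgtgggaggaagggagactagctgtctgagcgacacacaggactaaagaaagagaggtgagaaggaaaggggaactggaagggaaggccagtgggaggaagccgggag
Htr2c held 1 CCAAT box, on the opposite strand, with its first base at position -80 from the start site. Htr1a held none, and 37.4% of the 32851 windows held at least 1. Neither window held a TATA box (TATAAA, found in 13.6% of windows) or the full binding motif of the nuclear receptor Nr4a2, a claustrum core marker (AAAGGTCA, found in 1.51%), on either strand. The windows held 5 CG pairs for Htr2c and 7 for Htr1a, against a median of 7 over all windows. Htr1d and Htr6 had more than 1 window each. Among the windows of the other receptors, that of Htr1b and the Htr1d window starting at 136423274 held a CCAAT box. The Htr1d window starting at 136424362 held none. A match of letters is not a test of binding.

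Detection in single cells was compared between classes after thinning each cell to 20000 counts and leaving out the cells below that number. Equal totals of reads need not be equal numbers of molecules, so shares are compared within a mouse and not between the blindly sampled mouse and the others. This kept 406 Synpr-high and 521 Synpr-low cells. Htr2c then had a count in 59 of 85 Synpr-high cells of the blindly sampled mouse, or 69.4% (95% Clopper-Pearson interval 58.5 to 79.0%). In projection mice 1, 2 and 3 the share was 47.1% (41 of 87), 58.8% (50 of 85) and 36.9% (55 of 149). In Synpr-low cells it was 6.98% (6 of 86) in the blindly sampled mouse and 0.769% (1 of 130), 0.787% (1 of 127) and 1.69% (3 of 178) in the projection mice. With all counts used, 65.5% of the 325 Synpr-high cells and 4.02% of the 448 Synpr-low cells of the projection mice had a count of Htr2c. Among cells with a count, the median Htr2c level in Synpr-high cells ran from 48.8 CPM in projection mouse 1 to 141 CPM in the blindly sampled mouse, which had the lowest depth.

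Htr1a was found in fewer Synpr-high cells. At 20000 counts the share was 16.5% (14 of 85) in the blindly sampled mouse and 18.4% (16 of 87), 12.9% (11 of 85) and 18.1% (27 of 149) in projection mice 1, 2 and 3. In Synpr-low cells it was 5.81% (5 of 86), 7.69% (10 of 130), 7.09% (9 of 127) and 4.49% (8 of 178), in the same order. The share was higher in Synpr-high cells of 4 of 4 mice, by 10.2 ± 3.22 percentage points (SD, n = 4), against 50.5 ± 12.2 points for Htr2c. Htr1f was found in 22.2% of Synpr-high and 17.1% of Synpr-low cells over all mice, with a difference per mouse of 4.01 ± 9.91 points, within its spread. Htr6 was found in 2.71% and 6.33%, and Htr2a in 3.94% and 1.73%. Paired by mouse, an exact test by sign change over 4 mice cannot go below 0.125 (two-sided), so these shares carry no test.

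Within the Synpr-high cells of the projection mice, detection of Htr2c was set against the Synpr level, as a description with no test. It was 63.0% (17 of 27) in cells with 500 to 1000 CPM of Synpr, 53.6% (96 of 179) with 1000 to 2000 CPM, and 30.6% (33 of 108) with 2000 CPM or more. Between 200 and 500 CPM it was 0 of 7 cells (95% Clopper-Pearson interval 0 to 41.0%). Below the threshold it was 13.3% (2 of 15) from 50 to 200 CPM, 0 of 145 in cells with fewer Synpr counts and 1.09% (3 of 275) in cells with none. From 1000 to 2000 CPM Htr2c was found in 27 of 45, 36 of 56 and 33 of 78 cells of projection mice 1, 2 and 3, and at 2000 CPM or more in 11 of 35, 6 of 16 and 16 of 57, a lower share in 3 of 3 mice. By label, the same ranges gave 53 of 115 and 17 of 75 RSC-labeled cells, 17 of 29 and 5 of 10 LEC-labeled cells, and 26 of 35 and 11 of 23 unlabeled cells, lower at 2000 CPM or more in each label. Htr1a was at 25.9% (7 of 27), 13.4% (24 of 179) and 20.4% (22 of 108) in the 3 upper ranges.

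**Figure D2:**
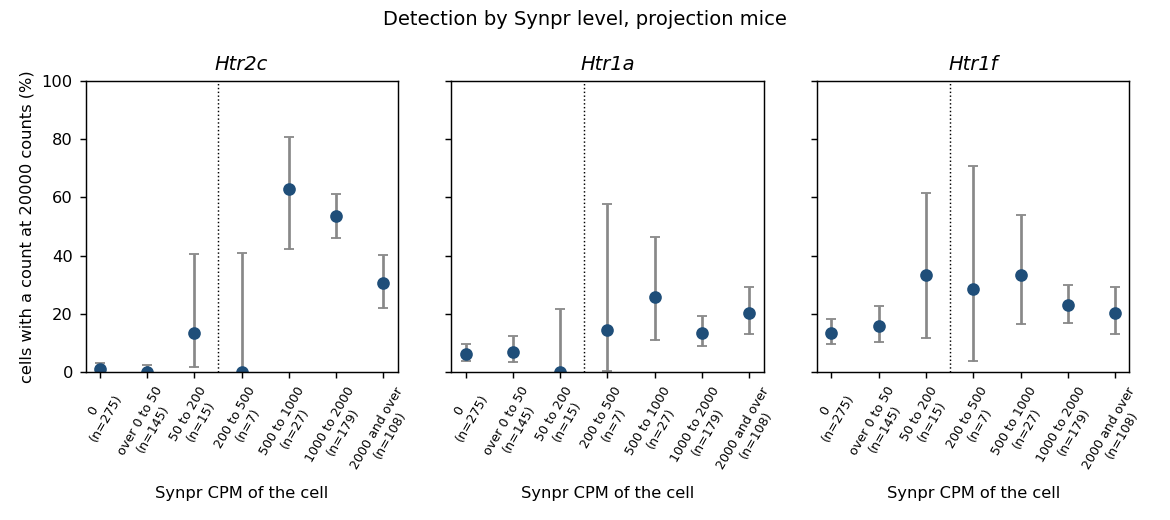
Share of cells of the projection mice with a count at 20000 counts per cell (vertical axis, %) by the Synpr level of the cell (horizontal axis, CPM ranges with the number of cells), for Htr2c, Htr1a and Htr1f. Bars are 95% Clopper-Pearson intervals and the dotted line is the 200 CPM threshold; Htr2c is highest from 500 to 2000 CPM and lower again at 2000 CPM and over.

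Most Synpr-high cells held at least 1 receptor gene at this total. Over all 10 genes, 73.4% of 406 Synpr-high cells (95% Clopper-Pearson interval 68.8 to 77.6%) and 34.2% of 521 Synpr-low cells (30.1 to 38.4%) had a count of 1 or more. In single mice the share was 69.1 to 77.6% in Synpr-high and 28.7 to 47.7% in Synpr-low cells, without overlap. Counts of 2 or 3 receptor genes were found in 96 and 12 Synpr-high cells, and in 23 and 2 Synpr-low cells. Htr1a was found in 5 of 41, 6 of 50 and 10 of 55 Synpr-high cells with Htr2c counts in projection mice 1, 2 and 3. Among Synpr-high cells without Htr2c counts it was found in 11 of 46, 5 of 35 and 17 of 94. In the blindly sampled mouse it was found in 12 of 59 cells with and in 2 of 26 cells without Htr2c counts. As shares, this is higher with Htr2c in the blindly sampled mouse and lower in projection mice 1 and 2, while projection mouse 3 had 18.2% and 18.1%, so the mice differed in direction.

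**Figure D3:**
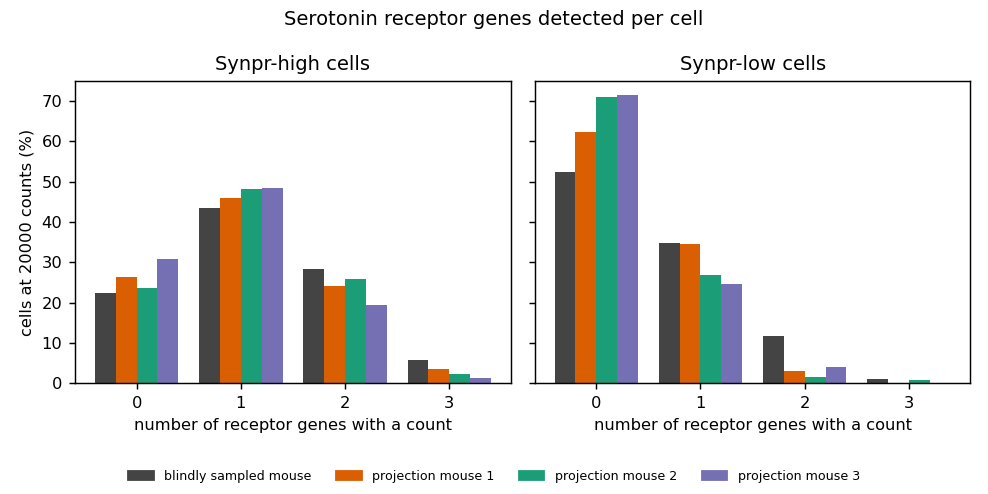
Share of cells (vertical axis, %) with counts of 0, 1, 2 or 3 of the 10 receptor genes (horizontal axis) at 20000 counts per cell, for Synpr-high and Synpr-low cells, with 1 bar per mouse. Cells with no receptor count make up 22.4 to 30.9% of Synpr-high cells and 52.3 to 71.3% of Synpr-low cells.

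The Synpr-low cells were then split by layer 6 markers, and the 3 classes were fitted together. Against the 425 Synpr-low cells without layer 6 markers, Synpr-high cells were higher in Htr2c, with a log2 difference of 5.78 (SE 0.95, edgeR adjusted p = 0.0021). Htr2c was at 57.9 to 120 CPM in Synpr-high cells, at 0.15 to 2.54 CPM in Synpr-low cells without layer 6 markers and at 0 to 9.97 CPM in those with them. Only this receptor was called, among 5.78% of 13000 genes called. Htr1a differed by 1.69 (SE 0.48, edgeR adjusted p = 0.056), with the higher value in 4 of 4 mice. Its adjusted p was 0.0077 by DESeq2 and 0.028 by edgeR without projection mouse 2. Of 16 alternatives, however, 13 left Htr1a uncalled, with an edgeR adjusted p of up to 0.36.

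Between Synpr-low cells with and without layer 6 markers, edgeR called 0 of 6 receptors and DESeq2 also called 0, with 1 receptor under an unadjusted p of 0.05. The background was 1.82% of 13000 genes. That receptor was Htr6. Its level was 2.72 CPM in cells with layer 6 markers in the blindly sampled mouse and 3.71 and 3.53 CPM in projection mice 1 and 2, with projection mouse 3 the lowest at 1.504 CPM. Without the markers it was at 8.63, 7.48, 3.97 and 7.12 CPM, in the same order. The values did not overlap, with a log2 difference of -1.23 (SE 0.53, edgeR adjusted p = 0.33). Htr1f was at 63.5 CPM in Synpr-low cells with layer 6 markers of the blindly sampled mouse, against 6.85 to 18.2 CPM in the projection mice. Htr1a was at 4.11 to 12.7 CPM in cells with and at 2.25 to 8.68 CPM in cells without layer 6 markers, and was higher with them in 3 of 4 mice. Htr2a had 5 counts in the Synpr-low cells with layer 6 markers, all in projection mouse 1, and 87 in those without.

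Cells projecting to RSC and to LEC were compared in the 3 projection mice, to ask whether receptors follow the target of the neuron. Htr2c was the only receptor called of 7 tested, and it was higher in RSC-labeled cells. In projection mice 1, 2 and 3 it was at 44.8, 64.3 and 43.8 CPM in RSC-labeled cells, at 20.2, 14.8 and 10.4 CPM in LEC-labeled cells and at 28.2, 39.2 and 39.5 CPM in unlabeled cells. The RSC and LEC values did not overlap. The log2 difference was 1.75 (SE 0.28, edgeR adjusted p = 0.0064), higher in 3 of 3 mice, and the background was 3.95% of 13976 genes. In the plate of projection mouse 3 that held both labels, Htr2c made up 37.0 CPM of all counts in 34 RSC-labeled cells and 14.8 CPM in 44 LEC-labeled cells, and at 20000 counts it was found in 8 of 34 and 4 of 42 cells. Without that plate the log2 difference was 1.89 (edgeR adjusted p = 0.014). Without projection mouse 2 or 3 the log2 difference was 1.54 or 1.64 and the adjusted p 0.13 or 0.10.

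Htr1a was also higher in RSC-labeled cells of 3 of 3 mice. It was at 12.5, 16.6 and 12.8 CPM in RSC-labeled cells, at 6.21, 8.03 and 5.12 CPM in LEC-labeled cells and at 10.1, 6.01 and 10.1 CPM in unlabeled cells of projection mice 1, 2 and 3. RSC and LEC values did not overlap. The log2 difference of 1.11 (SE 0.35) did not pass the test (edgeR adjusted p = 0.12), except with cells thinned to 20000 counts, where it was 1.98 (adjusted p = 0.022). Of the others, Htr1f differed by 0.36 (SE 0.25), Htr2a by 1.48 (SE 1.03), Htr5a by -0.01 (SE 0.76), Htr6 by -0.32 (SE 0.75) and Htr1b by -0.60 (SE 1.56), all on the log2 scale and all with an edgeR adjusted p of 0.55 or more.

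**Figure D4:**
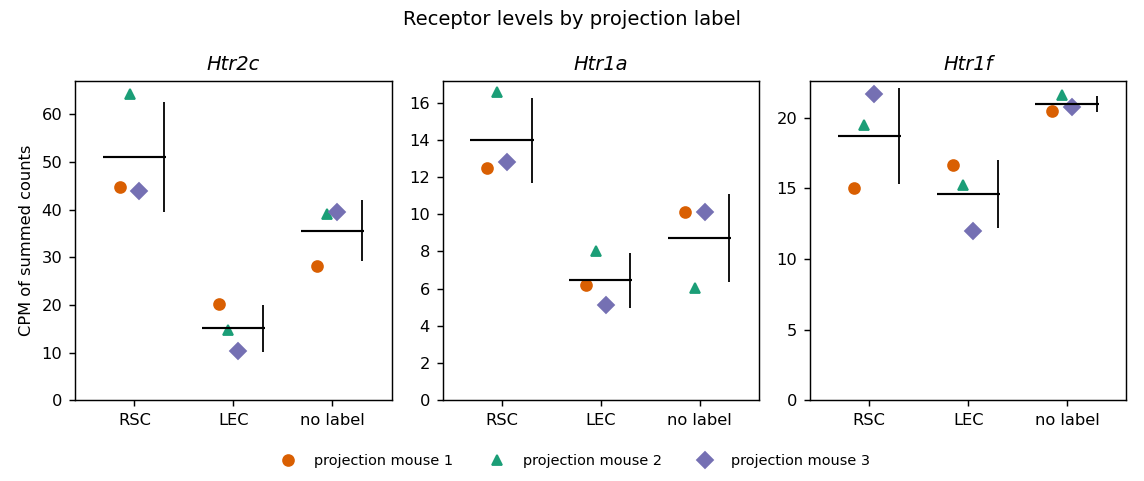
Levels of Htr2c, Htr1a and Htr1f in CPM of counts summed per mouse in RSC-labeled, LEC-labeled and unlabeled cells of the 3 projection mice, with 1 point per mouse, the mean as a horizontal line and ± 1 SD as a vertical line. For Htr2c and Htr1a, all RSC points lie above all LEC points, and for Htr1f they overlap.

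Against unlabeled cells, edgeR called 0 of 7 receptors in RSC-labeled cells, with 0 under an unadjusted p of 0.05, and DESeq2 and limma also called 0, while 1.63% of all genes were called. In LEC-labeled cells edgeR called 0 receptors and 0% of genes, with 1 receptor and 1079 genes under an unadjusted p of 0.05. That receptor was Htr2c, at -1.24 against unlabeled cells (SE 0.28, edgeR adjusted p = 0.29), and lower in 3 of 3 mice. DESeq2 called it (adjusted p = 0.0066) among 114 genes, and limma called 0 receptors and 20 genes. Unlabeled cells more often had at least 2 layer 6 markers, in 98 of 240 cells with both Synpr classes counted. Among 247 cells with the RSC label there were 25 such cells, and among 286 with the LEC label 21. In projection mice 1, 2 and 3 the unlabeled numbers were 43 of 80, 22 of 74 and 33 of 86, from 1 plate each. The part of layer 6 content or plate in these comparisons, and of plate in the layer 6 split, was not tested.

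The labels differed strongly in Synpr. Synpr-high cells were 213 of 247 RSC-labeled cells, 45 of 286 LEC-labeled cells and 67 of 240 unlabeled cells. In single mice they were 80.0 to 92.9% of RSC-labeled and 12.3 to 22.5% of LEC-labeled cells. Projection was therefore compared within each Synpr class. In Synpr-high cells of projection mice 1, 2 and 3, Htr2c was at 51.4, 75.8 and 45.8 CPM in RSC-labeled cells and at 66.2, 79.4 and 64.9 CPM in LEC-labeled cells. The LEC-labeled value was the higher in 3 of 3 mice, opposite to the comparison of all labeled cells, but the values overlapped. The log2 difference, RSC minus LEC, was -0.28 (SE 0.79, edgeR adjusted p = 1). Here edgeR called 0 of 6 receptors and 0% of 12410 genes, with 0 receptors and 508 genes under an unadjusted p of 0.05, and DESeq2 called 0 receptors and 16 genes.

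At 20000 counts, Htr2c had a count in 37.3% (19 of 51), 56.6% (30 of 53) and 28.6% (30 of 105) of RSC-labeled Synpr-high cells of projection mice 1, 2 and 3. The shares were 55.6% (10 of 18), 63.6% (7 of 11) and 8 of 16 cells in LEC-labeled and 66.7% (12 of 18), 61.9% (13 of 21) and 60.7% (17 of 28) in unlabeled Synpr-high cells. RSC-labeled cells had the lowest share in each of the 3 mice. With all counts used, the shares over the 3 mice were 119 of 213 RSC-labeled, 38 of 45 LEC-labeled and 56 of 67 unlabeled Synpr-high cells. These shares carry no test, since 3 mice in pairs cannot go below an exact p of 0.25 (two-sided).

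In Synpr-low cells, Htr2c had 1, 11 and 2 counts in LEC-labeled cells of projection mice 1, 2 and 3 and 0, 28 and 8 counts in RSC-labeled cells, of which there were 12, 14 and 8. Of the 41 counts in all Synpr-low cells of projection mouse 2, 1 RSC-labeled cell held 56.1%. The log2 difference, RSC minus LEC, was 4.38 (SE 1.05, edgeR adjusted p = 0.14). No receptor was called, against 0.193% of genes, with 1 receptor under an unadjusted p of 0.05, while DESeq2 called Htr2c (adjusted p = 0.00029). Between Synpr classes within the LEC label, Htr2c was higher in Synpr-high cells by 7.40 (SE 1.10, edgeR adjusted p = 0.0020), the only receptor called against 2.59% of genes. Without projection mouse 3 its adjusted p was 0.087. Within the RSC label the difference was 2.73 (SE 0.90, edgeR adjusted p = 0.17), against 1.61% of genes called. The difference between these differences was -4.67 (SE 1.31, edgeR adjusted p = 0.31), with 0.0645% of genes called. DESeq2 called both, with adjusted p of 0.028 within RSC and 0.021 for the interaction. Both use the same sparse RSC-labeled Synpr-low counts, which include that 1 cell of projection mouse 2.

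**Figure D5:**
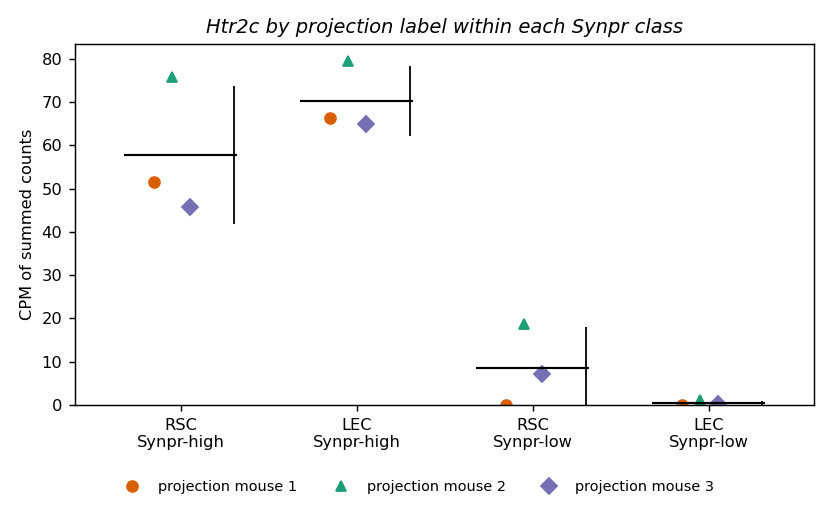
Htr2c level in CPM of counts summed per mouse in RSC-labeled and LEC-labeled cells of each Synpr class, with 1 point per projection mouse, the mean as a horizontal line and ± 1 SD as a vertical line. Synpr-high points lie between 45.8 and 79.4 CPM for both labels, and all Synpr-low points lie at 18.7 CPM or lower.

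Other genes of serotonin signaling were followed in lists chosen by name. Htr2b, Htr3a, Htr3b and Htr5b, the 4 further receptor genes followed, were too sparse to test, with 1 count of Htr2b, 6 of Htr3a and 23 of Htr5b over all kept cells. The counts in each list stand against the 8.82% of all genes called between Synpr classes. Of 8 Gi/o signaling genes, 2 were higher in Synpr-high cells and none was lower. Gnao1, the Gi/o protein most abundant in brain, was at 1714 to 1755 CPM in Synpr-high and at 528 to 637 CPM in Synpr-low cells of the 4 mice, a log2 difference of 1.55 (SE 0.08, edgeR adjusted p = 3.1e-06). Gnai1 was higher by 0.54 (SE 0.11, adjusted p = 0.013). The median of the list was 0.41.

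Of 10 Gq signaling genes, 6 were tested and 1 was higher, Plcb1, a phospholipase C activated by Gq, by 0.85 on the log2 scale (SE 0.11, edgeR adjusted p = 8.5e-04). The list's median was 0.01. Of 12 Gs signaling genes, 2 were higher and 2 lower, with a median of -0.08. The adenylyl cyclase Adcy2 was higher by 1.76 (SE 0.36) and the stimulatory G protein Gnas by 0.39 (SE 0.10), while the cyclases Adcy9 and Adcy1 were lower, at -2.05 (SE 0.25) and -0.78 (SE 0.16). Adcy9 was at 54.7 to 75.1 CPM in Synpr-low cells and at 9.76 to 22.2 CPM in Synpr-high cells. Of 7 tested receptor partners and editing enzymes, S100a10 alone was called. This annexin partner binds some serotonin receptors, and it was at 176 to 197 CPM in Synpr-high against 55.9 to 83.3 CPM in Synpr-low cells. Its log2 difference was 1.35 (SE 0.14, edgeR adjusted p = 3.0e-04), and the list's median was -0.02.

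Of 7 genes of serotonin synthesis, uptake and breakdown, 4 were tested, 1 was higher and 1 lower, with a median of 1.30. Tph1, a tryptophan hydroxylase best known outside the brain, was at 2.81 to 7.17 CPM in Synpr-high and at 0 to 0.53 CPM in Synpr-low cells, a log2 difference of 6.07 (SE 1.22, edgeR adjusted p = 0.011). Since its Synpr-low values were at or near 0, the size of that difference is uncertain. Maob, which breaks down amines, was lower by 0.82 on the log2 scale (log2 difference -0.82, SE 0.22, adjusted p = 0.046). Against Synpr-low cells without layer 6 markers, 3 genes of this list were tested and none was called, with a median of -0.32. Tph1 was at 5.40 (SE 1.42, edgeR adjusted p = 0.052) and Maob at -0.70 (SE 0.27, adjusted p = 0.20) there. Between RSC-labeled and LEC-labeled cells, where 3.95% of all genes were called, Gnao1, Plcb1 and Adcy2 were higher in RSC-labeled cells, by 0.99 (SE 0.09), 0.88 (SE 0.11) and 1.69 (SE 0.41), and Adcy9 was lower, at -1.70 (SE 0.23). No gene of the synthesis list and none of the partners was called there. Against unlabeled cells, with 1.63% of all genes called, RSC-labeled cells were higher in Gnao1, Gnai1 and Plcb1, by 0.81 (SE 0.09), 0.80 (SE 0.17) and 0.48 (SE 0.10), and lower in Adcy9, at -1.20 (SE 0.23). Between Synpr-low cells with and without layer 6 markers, Plcb4, another phospholipase C of the Gq path, was the only listed gene called, at 2.23 (SE 0.38, edgeR adjusted p = 0.010). Within both projection labels, Gnao1 was higher in Synpr-high cells, by 1.18 (SE 0.14) in RSC and 1.71 (SE 0.15) in LEC. S100a10 was also called within RSC, at 2.11 (SE 0.40), and Plcb1 and Adcy1 within LEC, at 0.92 (SE 0.20) and -0.90 (SE 0.21).

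The genes whose pattern was most like each receptor were taken over 20 sums of mouse, label and Synpr class, with log2(CPM + 1) centred within each mouse and 13641 genes compared. The sums share animals and libraries, so the correlations are descriptions. They were also split by Synpr level, so any gene that differs between the Synpr classes tracks Synpr here. For Htr2c the nearest genes were Klf7, Col11a1 and Chgb, with Pearson r of 0.98, 0.97 and 0.97, and Synpr itself was at 0.94. For Htr1a they were Tubb4a, Ptpla and Ell2, with r of 0.82, 0.80 and 0.80, and Synpr was at 0.55. The other 4 receptors had their 3 nearest genes at 0.76 to 0.86: Polr2i, BC025920 and Rpia for Htr2a, Gm6055, Ephb3 and 2610528E23Rik for Htr1f, 2610005L07Rik, Amz1 and C030030A07Rik for Htr5a, and Dusp16, 1700048O20Rik and Coq4 for Htr6. Synpr was at 0.04 for Htr1f and at -0.43 for Htr6.

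Markers of other cells were summed in each class. The 6 inhibitory neuron markers, which the table of the blindly sampled mouse does not list, summed to 5.86 to 141 CPM in Synpr-high and 0.67 to 31.9 CPM in Synpr-low cells of the projection mice, with Vip at 0 in both. They summed to 6.92 to 200 CPM in RSC-labeled and 0.16 to 0.89 CPM in LEC-labeled cells, where Gad1, Gad2, Sst and Vip were at 0. Gad1 was found in 10 and Gad2 in 14 of the 773 kept cells of the projection mice. The blindly sampled mouse could not be screened for them. Without the cells that had counts of either, Htr2c differed by 5.43 between Synpr classes and by 1.78 between RSC and LEC, and Htr1a differed by 1.38 between Synpr classes (edgeR adjusted p = 0.028). The 3 choroid plexus markers, from a tissue rich in Htr2c, summed to at most 1.87 CPM in either Synpr class of any mouse and to 0 in RSC-labeled cells, with Ttr at 0 throughout. The 3 serotonergic neuron markers summed to 0.61 to 3.05 CPM in Synpr-high and 0 to 0.85 CPM in Synpr-low cells. Fev, which defines serotonin neurons, was at 0, and Tph2 and Slc6a4 had counts in 12 and 4 kept cells. Oligodendrocyte lineage markers reached 301 CPM in Synpr-high and 454 CPM in Synpr-low cells, with overlap, and their part in the results was not tested. Astrocyte, microglia and endothelial markers summed to at most 2.74, 4.84 and 0.31 CPM in either Synpr class. Slc17a7 and Snap25, by which cells were kept, differed by -0.14 (edgeR adjusted p = 0.75) and 0.32 (adjusted p = 0.44) between the Synpr classes.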

How the data were processed

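Single claustral cells were harvested by hand and sequenced as 3′ tags. The authors aligned reads with STAR and deposited tables of counts per gene and cell, which were used as deposited and taken as raw reads; NCBIM37 and Seurat are credited to the submitters' processing notes. The aligner's version, the annotation and the use of strand are not given in the sources used here. Cell metadata gave the mouse, the plate and the projection label. No column of another series was found (0 columns not used).

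The minimum for a kept cell was 1 count each for Snap25 and Slc17a7, and no doublet caller was run. Counts were summed per mouse and class, leaving out sums of under 5 cells, filtered with filterByExpr, normalized by TMM and tested with edgeR 4.0.16 (quasi-likelihood, Benjamini-Hochberg threshold 0.05) in R 4.3.3. Synpr classes, Synpr classes with the layer 6 split, projection labels, and projection within Synpr class were 4 separate fits. DESeq2 1.42.0 and limma 3.58.1 on log2(mean CPM + 1) were alternatives, with other scaling, no filter, other Synpr thresholds, a minimum of 2 counts, ERCC in the total, thinning and leaving out each mouse. Leaving out cells with Gad1 or Gad2 counts, leaving out plate 12 and using genes of both tables were added after seeing the data. Thinning and intervals used Python 3.11.15, numpy 2.4.6 and scipy 1.17.1. The fits were also run on simulated sums drawn without a mouse effect, with changes placed only in genes of higher counts. Those runs do not cover sums paired by mouse or sparse genes.

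Classes of a fit came from the same animals. Deviations from class means correlated within mice at a median of 0.23 over 4 pairs in the Synpr comparison (0.20 to 0.63) against -0.11 between mice. The medians were 0.19 with the layer 6 split, 0.04 for projection labels and 0.03 for projection within Synpr class. A mouse block was therefore fitted as an alternative. With it, genes called rose from 1203 to 1995 for Synpr, from 752 to 1167 against Synpr-low cells without layer 6 markers and from 236 to 455 between Synpr-low classes. They also rose from 0 to 2 for LEC against unlabeled cells. They fell from 552 to 539 between RSC and LEC and from 228 to 204 for RSC against unlabeled cells. Between Synpr classes they fell from 200 to 160 within RSC and from 322 to 277 within LEC. No call of a receptor changed.

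The receptors, lists and tests were chosen with earlier results of these data known. Named were the 10 receptors, called genes of the fixed lists (at most 4 per list), the genes of the rules and marker lists, and the 3 genes most like each tested receptor. Depth was 434 to 495406 counts per kept cell, and 927 of 1011 kept cells reached 20000 counts.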

Additional observations from a re-analysis of the deposited data

Results flagged for a closer look

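Among 30 groups of 4 mice, a value far from the other 3 was found 7 times. In 4 of the 7 only 1 mouse had any count, so that its value had to stand apart. For the other 3, chance alone would flag about 1 in 20 groups, and the Synpr-low cells with layer 6 markers are part of the Synpr-low cells. Htr1f in Synpr-low cells was at 39.0 CPM in the blindly sampled mouse. Htr1d was at 5.05 CPM in Synpr-low cells and at 17.2 CPM in Synpr-low cells with layer 6 markers of the same mouse. Htr7 was at 0.27 CPM in its Synpr-low cells and at 0.91 CPM in those with layer 6 markers, which in both cases is 1 count. Htr1d in Synpr-high cells of projection mouse 1, at 0.054 CPM, is also 1 count, and Htr2a in Synpr-low cells with layer 6 markers of that mouse, at 0.88 CPM, is 5 counts. The mouse, its flow cell and its depth move together in the blindly sampled animal.

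Receptor counts also appeared in the 101 cells left out of all comparisons. There were 66 counts of Htr1a in 5 cells, 35 of Htr2c in 3 cells, 17 of Htr7 in 2 cells, 6 of Htr6 in 3 cells and 3 of Htr1f in 3 cells. All lay in the 74 cells with Snap25 but no Slc17a7 counts, which had a median of 6597 counts. The 27 cells without Snap25, with a median of 1640 counts, held none.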

How the results depend on the processing

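Of 395 values recomputed under an alternative, 357 kept their direction and their side of the threshold or moved within their limits. Leaving out each mouse in turn gave 1 to 2 receptors called between Synpr classes (1 without projection mouse 1 or 3), 1 to 2 against Synpr-low cells without layer 6 markers (2 without projection mouse 2), and 0 to 1 between RSC and LEC (0 without projection mouse 2 or 3). Thinning gave 2 receptors called, Htr2c and Htr1a, between RSC and LEC and 2 against Synpr-low cells without layer 6 markers, where DESeq2 also gave 2. Within Synpr-low cells, RSC against LEC gave 1 receptor with no filter and 1 with DESeq2. Htr1f, near 0 between Synpr classes, turned sign to 0.11 with the mouse block, 0.049 with thinning, 0.0038 without Gad1 or Gad2 cells and 0.16 with limma, and ran from -0.24 to 0.40 when mice were left out. Htr2c between Synpr-low classes ran from -0.20 (without projection mouse 1) to 1.81. The causes were not tested. Over all genes, the lowest and highest numbers called were 545 (without projection mouse 3) and 1995 (mouse block) for Synpr against 1203. They were 257 (without projection mouse 3) and 1167 (mouse block) against 752 for Synpr-low cells without layer 6 markers, 33 (without projection mouse 2) and 646 (DESeq2) against 236 between Synpr-low classes, and 59 (without projection mouse 3) and 1145 (DESeq2) against 552 for RSC and LEC. For RSC and unlabeled cells they were 8 (without projection mouse 2) and 663 (DESeq2) against 228. Within Synpr-low cells they were 0 and 288 against 24, within RSC 23 and 655 against 200, within LEC 89 and 840 against 322, and for the interaction 0 and 113 against 8. Scaling to the total changed no call or direction of a receptor. Low counts of Htr1b, Htr1d, Htr4 and Htr7 limit what can be said of them.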
